A study of Oryza sativa with 12 samples.

Results

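In rice leaves, 105 genes stood lower in every library from plants given VdAL plus azoxystrobin, VdAL or azoxystrobin than in every library from plants given water. They were chosen by their measured levels, so the gap to water describes how they were picked and is not a result of a test. Levels are in CPM (counts scaled to a common total of reads assigned to genes, after TMM scaling of the libraries). Of 88438 gene IDs in the files, 21381 had enough reads to be tested, and 15645 of these averaged 5 CPM or more in Water. All 9 treated libraries lay below every Water library in 537 of them. In 163 of the 15645, each of the 3 treated groups averaged at most 55.6% of the Water mean, which is a 1.8-fold reduction. Both conditions were met by the 105 genes, all of which are kept here. The mirrored rule, with every treated library above every Water library and each group at least 1.8-fold higher, was met by 8 genes. It kept the minimum of 5 CPM in Water, which is the lower side there and the higher side for the 105 genes. Genes of low level in Water that rose with treatment could therefore not meet it. The counts of 8 and 105 are not a like comparison, and no lean toward reduction is read from them.

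RNA was sequenced from 12 leaf samples of TU100, an indica hybrid rice, taken from plants 1 month old. There were 3 samples in each of 4 treatments: VdAL plus azoxystrobin (called the combination below), VdAL alone, azoxystrobin alone, and Water. The labels name no dose, no time after treatment and no expansion of VdAL, and they mention 4 growing areas without tying a plant to an area. An area and a treatment can therefore not be told apart if each treatment had its own. Nothing states that the 3 samples of a treatment came from separate plants, so a p-value reflects how far these libraries scatter, and that scatter may be technical.

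Azoxystrobin is a strobilurin fungicide. Strobilurins bind cytochrome b in complex III of the mitochondrial respiratory chain and stop the flow of electrons there, which starves a fungus of ATP. Plant mitochondria carry a complex III of the same kind, and leaves can answer a block of this chain by changing the activity of nuclear genes. The level of a messenger RNA reflects both how fast it is made and how fast it is broken down, and a leaf sample mixes mesophyll, epidermis and vascular tissue. Fewer cells of a type and less RNA per cell cannot be told apart in such samples.

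Of the 105 genes, 104 carry IDs starting with BGIOSGA, the series used for genes of the indica genome, and 1 carries an ID starting with EPlOING. Among all tested genes the numbers were 20081 and 1300. The files hold no names beside the IDs, and 0 of the 88438 IDs matched a table of 39387 named rice genes of the japonica assembly ASM3414082v1. No gene is therefore given a function, and no promoter or protein sequence is shown. The genes are described by what was measured on them.

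Reads assigned to genes ranged from 6444650 to 10144564 per library. The share of recorded reads not aligned uniquely was 12.6% to 13.03% in the combination, 15.3% to 22.4% in VdAL, 12.1% to 15.7% in azoxystrobin, and 9.01%, 15.0% and 16.1% in Water, where the lowest value is that of Water replicate 3. The counts behind the 105 genes were small in places. The lowest count of any of them in a treated library was 3 reads, and the lowest in a Water library was 27 reads.

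Summed over the 105 genes, the level was 3253, 4010 and 2881 CPM in the 3 combination libraries, 3027, 3388 and 2627 CPM in the VdAL libraries, 3321, 2694 and 2616 CPM in the azoxystrobin libraries, and 7752, 8099 and 5770 CPM in the Water libraries. The sums averaged 3381 ± 575 CPM in the combination, 3014 ± 381 CPM in VdAL, 2877 ± 387 CPM in azoxystrobin and 7207 ± 1257 CPM in Water (SD, n = 3 each). The treated groups thus held 46.9%, 41.8% and 39.9% of the Water sum, in that order of groups. The 3 treated ranges overlap one another, and Water replicate 3 is the Water library nearest to them. The highest treated library, combination replicate 2, lies below Water replicate 3, as the rule requires of every member and so of their sum.

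The mean of the 9 treated libraries ranged from 24.0% to 54.3% of the Water mean, with a median of 41.2%. It was more than 3-fold lower in 19 genes, between 2-fold and 3-fold lower in 80, and less than 2-fold lower in 6. Members covered a wide span of levels, from 5.80 to 808 CPM in Water with a median of 25.2 CPM, which is close to the median of 25.5 CPM over the 15645 genes at 5 CPM or more. The median percentage of Water was 39.9% in the 35 members of lowest Water level, 40.1% in the middle 35 and 42.0% in the 35 of highest level.

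**Figure D1:**
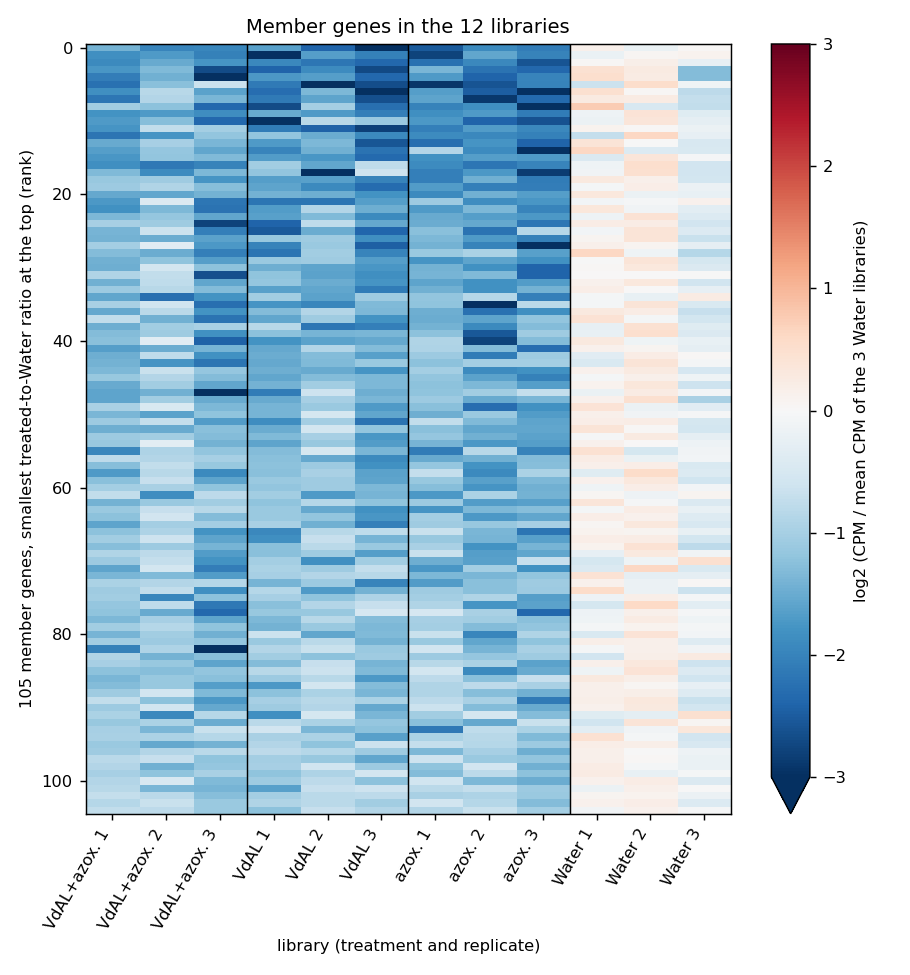
Each row is 1 of the 105 genes, ordered from the smallest ratio of treated to Water level at the top, and each column is a library. Colour gives log2 of CPM over the mean CPM of the 3 Water libraries, with values below the scale drawn in its darkest blue. All 9 treated columns are blue throughout, while Water replicate 3 is bluer than the other Water columns in many rows.

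Against Water, edgeR's quasi-likelihood test on all 21381 genes called 66 of the 105 lower in the combination, where 1.22% of all tested genes were called lower. It called 86 lower in VdAL, where 2.84% of tested genes were, and 78 lower in azoxystrobin, where 2.12% were (Benjamini-Hochberg adjusted p under 0.05). These contrasts are the ones the rule used, so nothing is read from the counts. They show that meeting the rule and passing the test are different things. In 57 members all 3 contrasts were called, in 22 a pair of them, in 15 only 1, and in 11 none. The median log2 difference from Water over the 105 genes was −1.25 in the combination, −1.30 in VdAL and −1.40 in azoxystrobin, beside −0.011, −0.010 and −0.020 over all tested genes.

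The gap between the groups was narrow for many members. The lowest Water library stood above the highest treated library by a median of 1.28-fold. It did so by over 2-fold in 5 genes, by over 1.5-fold in 22 and by less than 1.1-fold in 25. The narrowest was BGIOSGA014421, with 37.40 CPM in its highest treated library and 37.41 CPM in its lowest Water library. The widest was BGIOSGA022816, with 1.97 CPM in its highest treated library and 5.06 CPM in its lowest Water library.

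At the limit of 55.6%, the last genes inside were BGIOSGA004197, whose highest treated group was azoxystrobin at 21.6 CPM (55.4% of 39.0 CPM in Water), and BGIOSGA009773, at 95.6 CPM in the combination (55.3% of 173 CPM in Water). The nearest genes outside were BGIOSGA013697, with a combination mean of 2.85 CPM and a Water mean of 5.13 CPM (55.6%), and BGIOSGA005724, with a combination mean of 5.61 CPM and a Water mean of 10.1 CPM (55.7%). These neighbours hardly differ, so the edge of the list is a matter of the chosen limit.

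The 8 members with the smallest ratio of treated to Water level held between 24.0% and 28.3% of it. BGIOSGA006776 had 4.19, 2.82 and 2.85 CPM in the combination, 3.59, 2.1 and 0.910 CPM in VdAL, 1.95, 2.95 and 2.65 CPM in azoxystrobin, and 12.3, 9.67 and 11.4 CPM in Water. Its mean over the treated libraries was 24.0% of the Water mean. The 3 Water libraries lie close together and well above the rest, although the treated values rest on only 9 to 35 reads each.

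BGIOSGA033447 was the most abundant of these 8. It had 48.8, 64.5 and 53.7 CPM in the combination, 47.8, 40.6 and 35.6 CPM in VdAL, 39.05, 47.8 and 30.7 CPM in azoxystrobin, and 187, 208 and 156 CPM in Water. Its lowest Water library was 2.41-fold above its highest treated library, and all 3 combination libraries lay above the 6 libraries of the single treatments. BGIOSGA022816, the least abundant of the 8, had 1.62, 1.78 and 1.43 CPM in the combination, 0.513, 1.84 and 1.42 CPM in VdAL, 0.852, 1.97 and 1.45 CPM in azoxystrobin, and 5.06, 6.04 and 6.28 CPM in Water. Its treated groups overlap one another fully.

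In another 4 of the 8, Water replicate 3 stood far below the other Water libraries. BGIOSGA008437 had 10.3, 13.8 and 5.39 CPM in the combination, 6.56, 9.32 and 5.26 CPM in VdAL, 13.4, 7.45 and 6.74 CPM in azoxystrobin, and 47.7, 41.7 and 14.0 CPM in Water. BGIOSGA006247 had 8.38, 13.1 and 4.12 CPM in the combination, 10.8, 11.3 and 6.98 CPM in VdAL, 10.95, 6.75 and 9.03 CPM in azoxystrobin, and 50.2, 41.8 and 14.3 CPM in Water. Both genes met the rule narrowly, since that 1 Water library was within 1.1-fold of the highest treated library.

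BGIOSGA005591 and BGIOSGA019277 had the same shape. BGIOSGA005591 had 15.0, 37.1 and 26.3 CPM in the combination, 15.7, 22.4 and 10.8 CPM in VdAL, 22.8, 9.14 and 13.5 CPM in azoxystrobin, and 82.3, 79.9 and 41.1 CPM in Water. BGIOSGA019277 had 7.30, 14.8 and 8.71 CPM in the combination, 5.43, 10.4 and 2.73 CPM in VdAL, 8.39, 4.78 and 3.01 CPM in azoxystrobin, and 36.9, 26.9 and 15.2 CPM in Water. Without Water replicate 3 the treated mean of BGIOSGA006247 was 19.7% of Water, against 25.5% with it, and that of BGIOSGA008437 was 19.4%, against 25.2%.

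**Figure D2:**
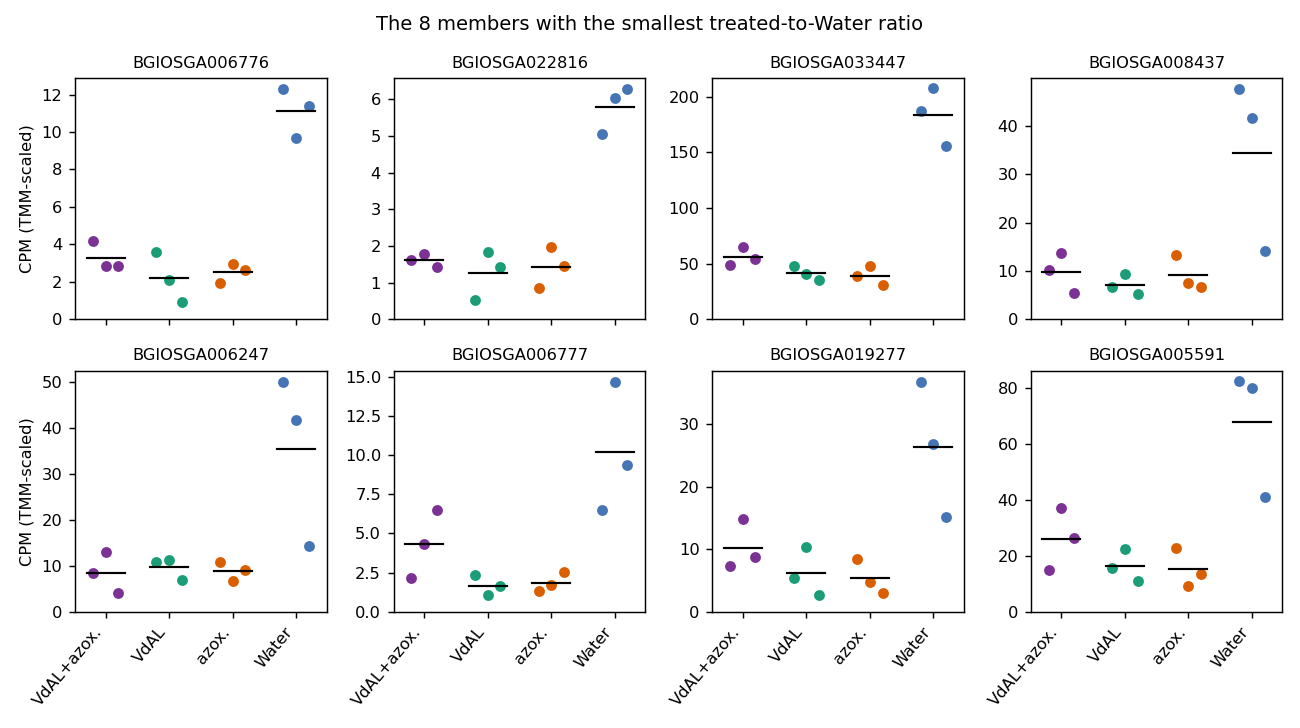
Each panel is 1 of the 8 members with the smallest ratio of treated to Water level. Points are libraries in CPM, with the treatments side by side and each group's mean as a black line. In BGIOSGA006776, BGIOSGA022816 and BGIOSGA033447 the 3 Water points are well clear of all 9 treated points, whereas in BGIOSGA008437 and BGIOSGA006247 the Water point of replicate 3 sits just above them.

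The 6 members of highest Water level made up 42.1% to 44.4% of the summed level in the Water libraries and 45.2% to 48.9% in the treated libraries. BGIOSGA024093, the most abundant, had 387, 544 and 323 CPM in the combination, 345, 421 and 311 CPM in VdAL, 434, 335 and 299.7 CPM in azoxystrobin, and 893, 913 and 617 CPM in Water. BGIOSGA011440 had the tightest Water values of the 6 relative to their mean. It had 304, 345 and 271 CPM in the combination, 234, 288 and 244 CPM in VdAL, 307, 252 and 274 CPM in azoxystrobin, and 601, 672 and 598 CPM in Water, with its lowest Water library 1.73-fold above its highest treated library.

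The other 4 were BGIOSGA026016, BGIOSGA003576, BGIOSGA012333 and BGIOSGA017385. BGIOSGA026016 averaged 249 ± 49.2 CPM in the combination, 257 ± 21.8 CPM in VdAL, 234 ± 16.8 CPM in azoxystrobin and 469 ± 49.4 CPM in Water (SD, n = 3 each). BGIOSGA012333 averaged 228 ± 34.8, 220.1 ± 19.4 and 224 ± 55.2 CPM in the combination, VdAL and azoxystrobin, and 414 ± 90.2 CPM in Water. In these genes the 3 treated groups are nearly level, and the reduction is among the smallest of the list, to 52.7% and 54.0% of Water.

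BGIOSGA003576 averaged 222 ± 45.0, 178 ± 44.5 and 174 ± 37.9 CPM in the combination, VdAL and azoxystrobin, and 453 ± 105 CPM in Water. BGIOSGA017385 averaged 200.8 ± 62.6, 142 ± 28.4 and 112 ± 40.4 CPM in those treatments, and 370.1 ± 108 CPM in Water. Without these 6 genes, the other 99 summed to 1757 ± 262 CPM in the combination, 1603 ± 220 CPM in VdAL, 1499 ± 179 CPM in azoxystrobin and 4069 ± 768 CPM in Water. The order of the groups is thus the same in the abundant and in the other members, and the treated groups' spreads overlap in both.

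The level of the members was also described library by library within each treatment. Water replicate 3 held a median of 73.2% of the mean of the other 2 Water libraries over the 105 genes, beside 98.8% over the 15645 tested genes at 5 CPM or more. It was the lowest Water library in 76 of the 105 members (72.4%), and in 36.3% of those tested genes. In 41 members it was under 2/3 of the other Water libraries (39.05%, against 7.66% of those tested genes).

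Within the combination, replicate 2 held a median of 126% of the mean of the other 2 libraries, and replicate 3 held 79.9%. Over the tested genes these medians were 100.3% and 99.3%. Within VdAL, replicate 2 stood at 122% and replicate 3 at 80.6%. Within azoxystrobin, replicate 1 stood at 119.9%, and replicates 2 and 3 at 94.5% and 85.0%. In Water, replicates 1 and 2 stood at 113% and 121%. Each library is set against the other 2 of its group, so a high library lowers their figures and a low one raises them. That a group holds both a high and a low library is therefore largely fixed by the measure, and nothing is read from it. In every treatment, Water included, replicate 3 was the lowest library by this measure. The tested genes at large had medians of 98.4% to 100.7% in all 12 libraries. TMM scaling levels the bulk of genes between libraries, so these medians are held there by the scaling. Nothing is read from the distance between them and the members' medians, here or for Water replicate 3 above.

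Combination replicate 2 was the highest of the 9 treated libraries in 41 members (39.05%, against 17.86% of the tested genes at 5 CPM or more). VdAL replicate 2 was the highest in 19 (18.1%, against 9.45%). Combination replicate 2 was over 1.5-fold the mean of the other combination libraries in 34 members (32.4%, against 4.61% of those tested genes). The share of reads not aligned uniquely was 12.6%, 13.03% and 12.9% in combination replicates 1 to 3, and 22.4%, 15.3% and 15.8% in VdAL. It was 14.7%, 12.1% and 15.7% in azoxystrobin, and 15.0%, 16.1% and 9.01% in Water. The part of this share in the members' levels was not tested.

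These deviations were also set against one another across genes. For each gene, the log2 ratio of a library to the mean of the other 2 of its group was taken, with 0.5 CPM added to both, for the libraries that stood out above. For combination replicate 2 with VdAL replicate 2, Spearman's rho over the 105 genes was 0.210, beside 0.127 over the 15645 tested genes. It was 0.462 for combination replicate 2 with azoxystrobin replicate 1, beside −0.0094. For VdAL replicate 2 with azoxystrobin replicate 1 it was 0.2125, beside 0.0465. With Water replicate 3, rho was −0.275 for combination replicate 2, beside 0.138, and −0.308 for VdAL replicate 2, beside 0.0345. For azoxystrobin replicate 1 with Water replicate 3 it was −0.390, beside −0.278. The tested genes came nearest to the members in the first and the last of these pairs. These are descriptions over genes that share the same libraries, and the libraries were picked after their values had been seen. The rule itself also ties Water values to treated values within a gene.

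Replicates of these genes were spread more widely than those of the tested genes at large, which were not matched to them for level. The median coefficient of variation of a member was 23.8% in the combination, 22.7% in VdAL, 23.6% in azoxystrobin and 26.8% in Water, beside 12.02%, 13.3%, 12.8% and 15.9% over the 15645 tested genes. Among the 9 treated libraries the highest value of a member was a median of 2.28-fold its lowest, beside 1.64-fold over those tested genes.

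**Figure D3:**
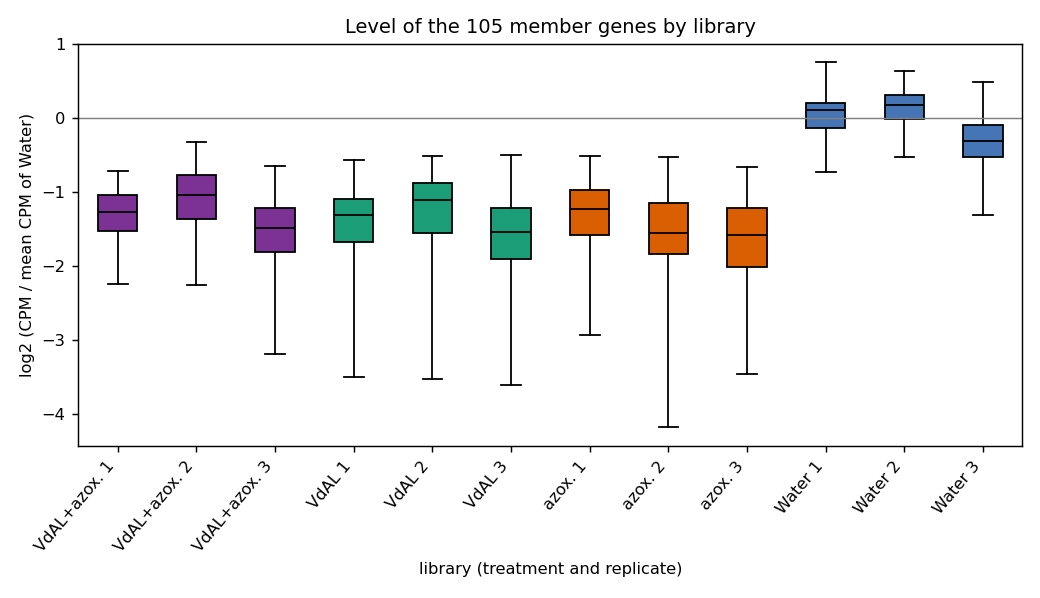
Boxes give the quartiles and the median over the 105 genes of log2 CPM relative to the mean of the 3 Water libraries, by library, and whiskers reach the lowest and highest gene. The median is −1.27, −1.04 and −1.48 in the combination, −1.31, −1.11 and −1.53 in VdAL, −1.23, −1.55 and −1.58 in azoxystrobin, and 0.11, 0.18 and −0.31 in Water.

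How far the list hangs on single libraries was described by leaving out each library in turn. The rule was applied to the other 11 libraries, and the library left out was then looked up in the genes so chosen. The libraries it was set against had helped to choose those genes as high in Water or low in the treated groups, so the shares are partly fixed by the rule and are given as a description. Without combination replicate 1 the rule chose 104 genes, and that library was below every Water library in 103 of them (99.04%). The share was 67.6% of 188 genes for combination replicate 2 and 97.9% of 94 genes for replicate 3. For VdAL replicates 1 to 3 it was 94.4% of 107, 92.2% of 115 and 99.1% of 108 genes. For azoxystrobin replicates 1 to 3 it was 95.5% of 111, 97.1% of 105 and 98.0% of 100 genes. Over the tested genes at 5 CPM or more, on which no such choice was made, a treated library was below every Water library in 25.7% to 29.9%. That share is not a like baseline, and nothing is read from the distance to it.

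Among the treated libraries, combination replicate 2 had the lowest share. The left-out library was at most 55.6% of the Water mean in 88.5%, 36.7% and 90.4% of the genes for combination replicates 1 to 3, 85.05%, 68.7% and 82.4% for VdAL, and 78.4%, 87.6% and 93.0% for azoxystrobin. Over the tested genes this share was 3.77% to 7.87%.

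On the Water side, the 9 treated libraries that the left-out library was set against were those the rule had required to be low. Water replicate 1 was above all 9 treated libraries in 100 of the 124 genes chosen without it (80.7%), replicate 2 in 100 of 142 (70.4%) and replicate 3 in 122 of 224 (54.5%). Over the tested genes these shares were 18.2%, 15.7% and 16.4%. A Water library at least 1.8-fold above the mean of the treated libraries was found in 63.7%, 60.6% and 37.05% of the chosen genes, against 3.50% to 3.79% of the tested genes. Without Water replicate 3 the rule is met by 224 genes, 102 of which are among the 105, so that library alone keeps 122 genes off the list. Without combination replicate 2 it is met by 188 genes, 103 of them among the 105.

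**Figure D4:**
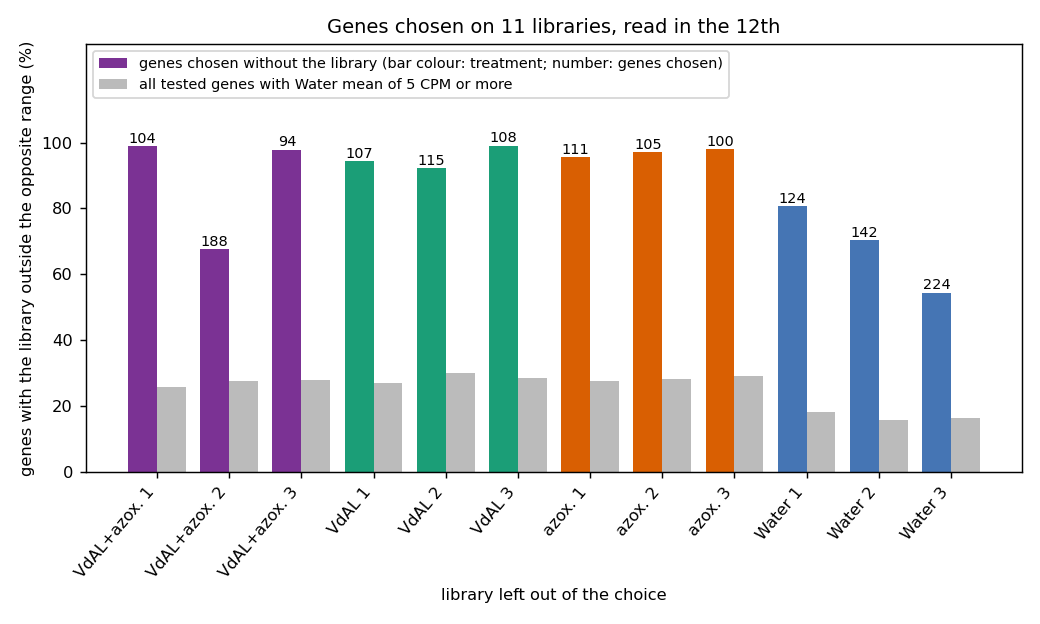
For each library, genes were chosen by the rule on the other 11 libraries, and the coloured bar gives the percentage of them in which the library left out lay below every Water library (treated libraries) or above every treated library (Water). Grey bars give the same percentage over all tested genes with a Water mean of 5 CPM or more, on which no choice was made, and the number over a bar is how many genes were chosen. Combination replicate 2 (67.6%) and Water replicate 3 (54.5%) are the lowest bars of the treated and of the Water libraries.

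The treated groups were then set against one another, which the rule did not do, although its upper limit on each treated group narrows how far they can lie apart. The combination was compared with the mean of the single treatments, with azoxystrobin and with VdAL, and VdAL was compared with azoxystrobin. The single treatments share no library with the combination, but the comparisons share libraries among themselves.

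In the combination against the mean of the single treatments, 68 of the 105 genes were higher and 37 lower, with a median log2 difference of 0.11. Over all tested genes 49.8% were higher and the median was −0.0014. EdgeR's quasi-likelihood test called 1 member, higher in the combination, or 0.952% of the 105, while 0.608% of all tested genes were called. At an unadjusted p under 0.05 there were 20 members (19.05%), 18 of them higher, beside 15.4% of tested genes. Both shares are near the background. DESeq2 called 3 members, beside 2.88% of the genes it tested. The lean of the list depends on 1 library: without combination replicate 2 the median was −0.018 with 51 genes higher, and 0 members were called.

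BGIOSGA001968 was the called member. It had 42.3, 48.1 and 37.2 CPM in the combination, 29.9, 23.8 and 18.2 CPM in VdAL, 28.1, 21.8 and 21.2 CPM in azoxystrobin, and 86.4, 102 and 79.9 CPM in Water. All 3 combination libraries lay above all 6 libraries of the single treatments and below all 3 of Water. The log2 difference from the mean of the single treatments was 0.84 (SE 0.15, 95% interval 0.51 to 1.16, adjusted p = 0.0269). It was positive under all 20 alternative settings, at 0.74 to 1.01, and called under 17, with adjusted p from 1.11e-06 to 0.311. The call was lost without combination replicate 1 (adjusted p = 0.0678), without combination replicate 2 (0.311) and without VdAL replicate 3 (0.0595).

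The 4 members with the highest differences from the single treatments were BGIOSGA006777, BGIOSGA037049, BGIOSGA026145 and BGIOSGA019277. BGIOSGA037049 had 6.08, 12.3 and 10.1 CPM in the combination, 4.82, 3.81 and 2.93 CPM in VdAL, 4.99, 6.47 and 5.42 CPM in azoxystrobin, and 22.3, 21.3 and 18.3 CPM in Water. Its log2 difference was 1.03 (95% interval 0.54 to 1.51, adjusted p = 0.0544 by edgeR), just short of the threshold. It was called under 8 of 20 alternatives, DESeq2 among them, with adjusted p from 0.0017 to 0.436.

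BGIOSGA006777 differed by 1.26 on the log2 scale (95% interval 0.45 to 2.07, adjusted p = 0.125), on 8 to 41 reads per treated library. BGIOSGA026145 differed by 0.97 (95% interval 0.26 to 1.68, adjusted p = 0.174) and BGIOSGA019277 by 0.84 (95% interval 0.036 to 1.65, adjusted p = 0.301). Each of these 3 passed the threshold in a single alternative of the 20, in which no gene was filtered out for low counts. Their combination libraries were spread widely, at 2.16, 4.30 and 6.49 CPM for BGIOSGA006777 and 9.46, 15.3 and 5.86 CPM for BGIOSGA026145.

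The 4 members with the lowest differences were BGIOSGA022607, BGIOSGA023328, BGIOSGA028967 and BGIOSGA033070. BGIOSGA022607 had 2.84, 6.08 and 1.27 CPM in the combination, 6.25, 7.22 and 5.36 CPM in VdAL, 7.79, 4.36 and 5.90 CPM in azoxystrobin, and 11.1, 12.8 and 10.7 CPM in Water. Its log2 difference was −0.85 (95% interval −1.58 to −0.12, adjusted p = 0.251 by edgeR). The other differences were −0.72, −0.62 and −0.59, with 95% intervals that reach past 0 and adjusted p of 0.364, 0.375 and 0.370. None of the 4 was called under any of the 20 alternatives, so no member was told apart as lower in the combination than in the single treatments.

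**Figure D5:**
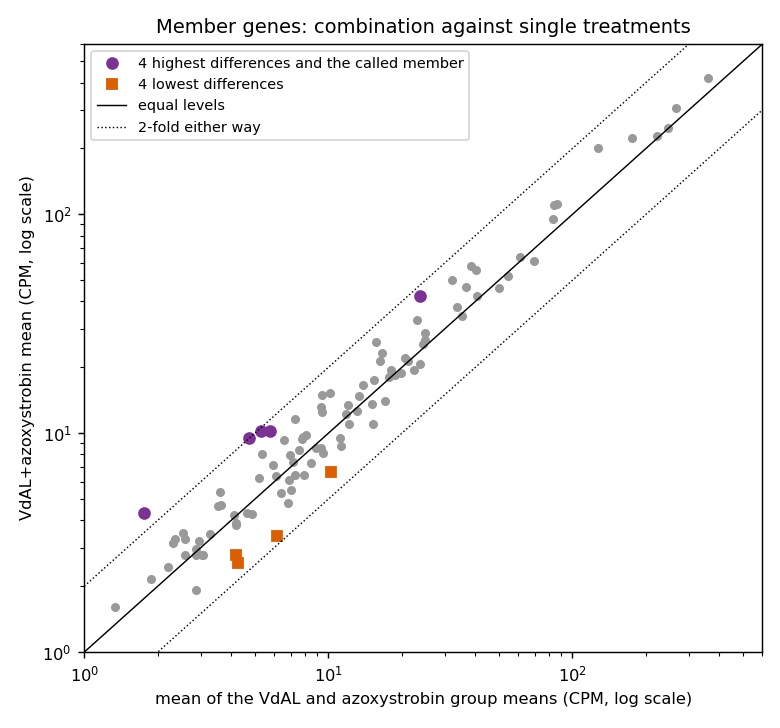
Each point is 1 of the 105 genes, with the mean of the VdAL and azoxystrobin group means on the horizontal axis and the combination mean on the vertical axis, both in CPM on log scales. Points above the solid line are higher in the combination. Purple points are the 4 members of highest difference and the called member BGIOSGA001968, orange squares are the 4 of lowest difference, and dotted lines mark 2-fold in either direction.

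Against azoxystrobin alone, the combination was higher in 77 members and lower in 28, with a median log2 difference of 0.15, beside 0.0020 over all tested genes. The edgeR test called 0 members and 0% of all tested genes. At an unadjusted p under 0.05 there were 15 members (14.3%), 14 of them higher, beside 12.04% of tested genes. DESeq2 called 1 member, beside 1.04% of the genes it tested. Without combination replicate 2 the median against azoxystrobin was 0.052, with 62 members higher. Against VdAL alone, the combination was higher in 58 members and lower in 47, with a median of 0.090, beside −0.0025. The edgeR test called 0 members, beside 0.0187% of tested genes. At an unadjusted p under 0.05 there were 15 members, 12 of them higher, beside 12.8% of tested genes. DESeq2 called 3 members, beside 1.60% of the genes it tested. Without combination replicate 2 the median against VdAL was −0.041, with 48 members higher.

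VdAL was higher than azoxystrobin in 62 members and lower in 43, with a median log2 difference of 0.076, beside 0.00066 over all tested genes. The edgeR test called 0 members and 0% of tested genes, and DESeq2 called 0 members and 0.0327% of the genes it tested. At an unadjusted p under 0.05 there were 2 members, or 1.91%, beside 3.36% of tested genes. Without VdAL replicate 2 the median was −0.011, with 52 members higher. The median half-width of the 95% interval of a member was 0.60 on the log2 scale. The interval lay within 2-fold in either direction for 77 members, so for the other 28 a 2-fold difference between the single treatments is not excluded. It lay within 2-fold for 62 members in the combination against VdAL and for 70 in the combination against azoxystrobin.

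By group means alone, azoxystrobin was the lowest treated group in 49 of the 105 genes, VdAL in 32 and the combination in 24. Over the 15645 tested genes the combination was the lowest treated group most often, in 40.4%, with VdAL at 30.3% and azoxystrobin at 29.3%. It was also the highest treated group most often there, in 37.9%, with VdAL at 32.3% and azoxystrobin at 29.8%. Among the 105 genes the highest treated group was the combination in 54 (51.4%), VdAL in 36 (34.3%) and azoxystrobin in 15 (14.3%). These tallies were not redone with a library left out. The place of the combination among the members may hang on combination replicate 2, the highest treated library in 41 of them. Without that library 51 members, rather than 68, were above the mean of the single treatments. The order of VdAL and azoxystrobin may hang on VdAL replicate 2, without which their median log2 difference was −0.011. All 3 combination libraries lay above all 6 of the single treatments in 5 members (4.76%), beside 5.56% of tested genes, and below all 6 in 0 members, beside 3.72%. The 5 were BGIOSGA033447, BGIOSGA001968, BGIOSGA008780, BGIOSGA000948 and BGIOSGA036701, of which the last 3 were named after their values had been seen. The share above is near the background, and the rule's limit holds the combination down relative to Water.

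Some members carry ID numbers that follow each other. There were 3 such pairs, BGIOSGA003583 with BGIOSGA003584, BGIOSGA006159 with BGIOSGA006160, and BGIOSGA006776 with BGIOSGA006777. What neighbouring numbers say about position in the genome, or about likeness of sequence, is not given in the sources used here.

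In each of these pairs 1 member was the more abundant or the steadier. BGIOSGA003583 averaged 42.4 ± 6.61, 47.3 ± 9.91 and 34.3 ± 3.13 CPM in the combination, VdAL and azoxystrobin, and 113 ± 35.3 CPM in Water, while BGIOSGA003584 averaged 6.24 ± 0.867, 5.23 ± 1.03 and 5.16 ± 0.399 CPM, and 15.9 ± 4.88 CPM in Water. BGIOSGA006159 averaged 28.7 ± 2.82, 25.3 ± 6.44 and 24.3 ± 3.76 CPM in the same order, and 63.3 ± 11.6 CPM in Water, while BGIOSGA006160 averaged 3.22 ± 1.24, 2.82 ± 0.313 and 3.07 ± 1.08 CPM, and 7.81 ± 1.49 CPM in Water. The treated means were 36.5% and 34.9% of Water in the first of these 2 pairs and 41.2% and 38.9% in the second. The quartiles over all members were 35.7% and 44.5%, so the rule alone leaves many members this close. Nothing is read from the likeness within a pair.

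In the third pair both genes were of low level. BGIOSGA006777 had 2.16, 4.30 and 6.49 CPM in the combination, 2.36, 1.05 and 1.62 CPM in VdAL, 1.34, 1.69 and 2.53 CPM in azoxystrobin, and 6.51, 14.7 and 9.35 CPM in Water. Its highest treated library and its lowest Water library nearly touch, at 6.494 and 6.505 CPM, whereas in BGIOSGA006776 the lowest Water library was 2.31-fold above the highest treated library. The member with an EPlOING ID, EPlOING00000025482, was also of low level, averaging 3.15 ± 2.05 CPM in the combination, 2.17 ± 0.197 CPM in VdAL, 2.47 ± 1.36 CPM in azoxystrobin and 6.78 ± 1.28 CPM in Water. Its 3 combination libraries, at 2.84, 5.34 and 1.27 CPM, span more than the distance between the treated group means.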

How the data were processed

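The authors deposited a table of raw read counts per gene ID for each of the 12 samples. The submitters' processing notes name TopHat2 2.1.0, HTSeq 0.6.1 and edgeR 3.16.3 without their roles, and a pig genome build, Sscrofa10.2, which the rice gene IDs do not bear out, so no coordinates are given. The sources used here state no counting mode or strand setting, so genes that overlap on opposite strands, or near-identical copies, may not be told apart. The closing lines of each table (reads outside genes, ambiguous or not aligned uniquely) held 59.2% to 65.3% of recorded reads and entered neither library sizes nor tests.

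IDs were filtered with filterByExpr (minimum count 10), scaled by TMM (factors 0.926 to 1.05) and fitted with edgeR 4.0.16 in R 4.3.3 by glmQLFit and glmQLFTest in a group-means model of all 12 libraries, after tests on simulated data. Tests were two-sided, with Benjamini-Hochberg adjustment over all 21381 genes and a threshold of 0.05. DESeq2 1.42.0, other scalings, no filter, a replicate block, a covariate, the compared groups alone and leaving out each library were alternatives. The members, comparisons and naming rules were chosen with earlier results of these data known. Genes were named for the 8 smallest ratios to Water, the 6 highest Water levels, the 4 highest and lowest differences of the combination, the limit, a call, the EPlOING prefix or consecutive ID numbers. No gene list could be used, since no ID has a name. Within groups, no pair of libraries agreed within sampling noise (lowest chi-square per degree of freedom 4.35).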

Additional observations from a re-analysis of the deposited data

Results flagged for a closer look

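A signal outside the gene counts stood above its level in Water in 2 libraries. In VdAL replicate 1, 22.4% of the recorded reads were not aligned uniquely, against at most 16.1% in a Water library. In VdAL replicate 2, 0.834% of the recorded reads fitted more than 1 gene, against at most 0.830% in Water. The 105 genes summed to 3027 CPM in VdAL replicate 1 and 3388 CPM in VdAL replicate 2, both within the range of the treated libraries, and the part of these reads in the members' levels was not tested.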

How the results depend on the processing

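The rule was met by 105 genes, by 86 to 105 under other scalings or no filter, by 227 with a limit of 1/1.5, by 73 with a limit of 1/2 and by 141 with a Water minimum of 1 CPM. Leaving out 1 library gave 94 to 224 genes. Library sizes without scaling factors kept 78 of the 105. They moved the median of all tested genes by −0.10 in the combination against the mean of the single treatments, where the median of the members was then 0.0063. Against VdAL that median fell below 0, at −0.011. Members called in the combination against the mean of the single treatments numbered 12 without a filter, 3 on the compared groups alone and 3 with DESeq2, where 3.44%, 2.48% and 2.88% of all tested genes were called, and 0 to 3 when 1 library was left out (0 without combination replicate 2 or VdAL replicate 3). Against azoxystrobin those counts were 9, 1 and 1 (2.24%, 0.713% and 1.04% of all tested genes), with 0 throughout when 1 library was left out. Against VdAL they were 6, 1 and 3 (2.58%, 1.90% and 1.60%), with 0 to 2.

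Members called lower than Water ran from 23 to 79 in the combination, 35 to 88 in VdAL and 47 to 82 in azoxystrobin when 1 library was left out. The count moved by over 1.5 times without replicate 1 (28) or 3 (23) of the combination and without Water replicate 1 (34) or 2 (28), without VdAL replicate 3 (35) or Water replicate 1 (55) for VdAL, and without azoxystrobin replicate 3 (47). The list's median stayed between −1.53 and −1.11 in all of these contrasts when 1 library was left out. With VdAL against azoxystrobin the median was −0.030 once each library's share of non-unique reads entered the fit. Deviations of same-numbered libraries correlated at −0.205 to 0.104, and 3 of 12 libraries were closest to their own number. By these correlations replicate numbers did not pair the libraries. Summed over the members, however, replicate 3 was the lowest library of every treatment. It held 2881 CPM in the combination, 2627 CPM in VdAL, 2616 CPM in azoxystrobin and 5770 CPM in Water. What this shared position stems from was not tested. With a replicate block 65, 79 and 76 members were called lower in the combination, VdAL and azoxystrobin, beside 1.09%, 2.53% and 1.93% of all tested genes, and 1 was called in the combination against the single treatments, beside 0.271%. With RLE factors and with no scaling, both added after seeing the data, the left-out combination replicate 2 lay below every Water library in 67.2% and 71.2% of the genes chosen without it, and Water replicate 3 lay above every treated library in 53.2% and 53.0%.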
